A study of Bos taurus with 40 samples.

Results

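The immediate early response genes are 10 protein-coding genes, FOS, FOSB, JUN, JUNB, EGR1, ATF3, NR4A1, IER2, DUSP1 and MYC, which were taken from the count tables by their symbols. All 10 were found among the 13570 genes listed, and all 10 belong to the 13148 genes that had a read in any sample, over which every test was run. The 40 libraries hold RNA of the pituitary gland, the liver, fat of the abdomen and the longissimus dorsi muscle, each taken from the same 5 cows and 5 bulls of Korean cattle. The animals were older than 22 months at slaughter, and no treatment is named for either sex. Tissues were taken right after slaughter and frozen, and the time to freezing of each sample is not given in the sources used here. The 4 libraries of 1 animal were matched through the ear tag in the labels, and animals are called cow 1 to 5 and bull 1 to 5.

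Immediate early genes are transcribed within a short time of a signal such as a growth factor, hormone, nerve input or stress, without the need for new protein synthesis. Their transcripts are short-lived, so that their level follows the recent state of a tissue more than its lasting identity. Many encode transcription factors, such as the FOS and JUN proteins that pair as AP-1, while others, such as the phosphatase DUSP1, switch the signal off again.

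Between 5173092 and 19165864 reads per library were counted on genes, and 33.3% to 54.3% of uniquely aligned reads fell outside genes. Levels are given as CPM (read counts relative to the scaled size of the library) after TMM scaling over the 40 libraries, and a level can be compared between tissues but not between genes, since it was not divided by transcript length. Marker genes matched the tissue labels. The summed level of 5 liver markers was 84000 to 190700 CPM in liver and at most 453.5 CPM elsewhere, that of 5 fat markers was at least 6414 CPM in fat and at most 799.2 CPM elsewhere, and the muscle and pituitary lists were as separate. The sex-linked genes of 2 libraries stood apart from their labels. The library labelled liver of bull 3 had no read on the Y-linked genes DDX3Y, USP9Y and ZFY and had 1401 CPM of XIST, the transcript of the inactive X, within the range of the cow livers (680.6 to 2179 CPM). Of all pairs of libraries within a tissue, it and the liver of cow 4 were the most alike (r = 0.99317), although their counts differed by more than sampling noise. The library labelled fat of bull 5 had 23 reads on USP9Y and a low level of XIST (1.39 CPM). Counts that rest on these libraries are also given without them.

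The level of the 10 genes differed widely between tissues, and liver was low for most of them. By the median over 10 animals, liver was the lowest tissue for 6 genes (FOS, FOSB, JUN, EGR1, NR4A1 and IER2), pituitary gland for 3 (ATF3, DUSP1 and MYC) and muscle for 1 (JUNB). Fat was the highest tissue for 5 genes (FOS, FOSB, JUNB, IER2 and MYC), muscle for 3 (JUN, ATF3 and DUSP1) and pituitary gland for 2 (EGR1 and NR4A1). In whole tissue, fewer cells of a type and less RNA per cell cannot be told apart. Tissues were compared with edgeR's quasi-likelihood test on all 40 samples with sex as a covariate, and adjusted p-values are Benjamini-Hochberg values over 13148 genes.

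**Figure D1:**
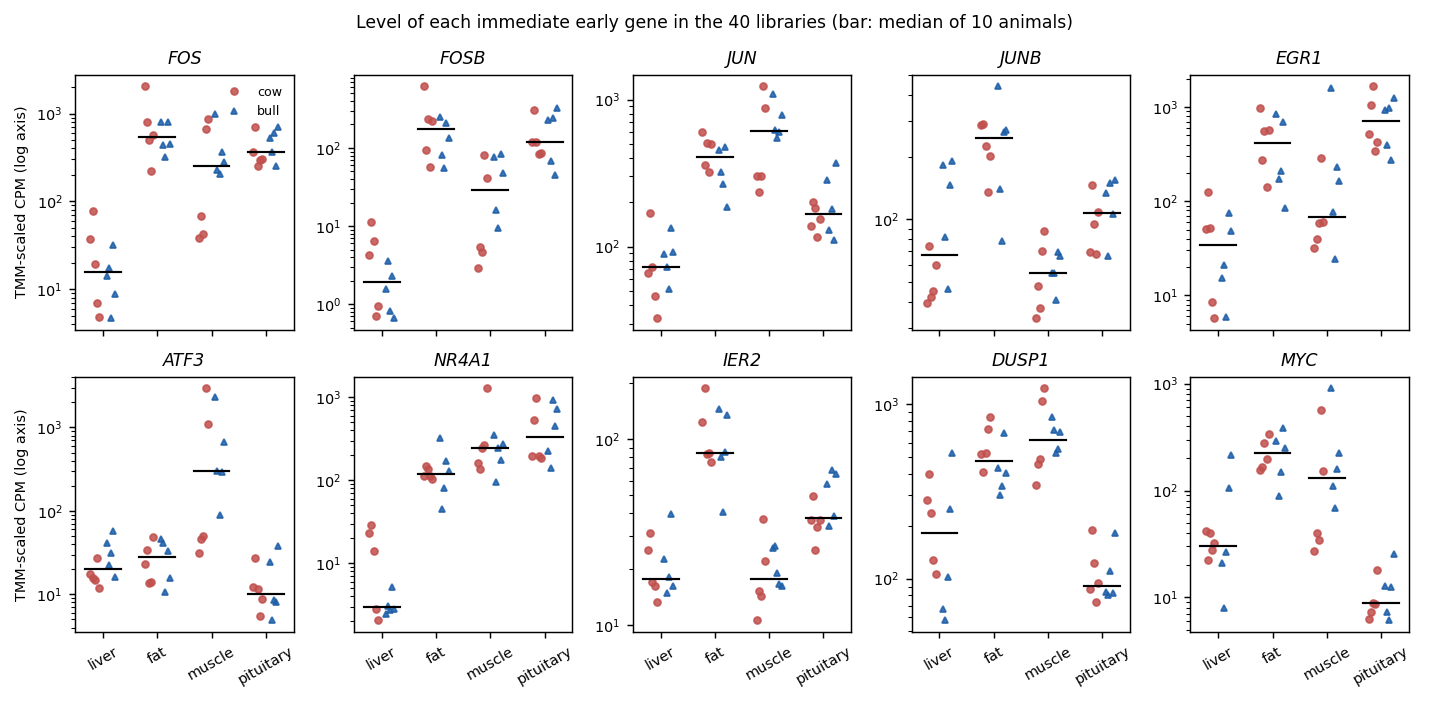
TMM-scaled CPM of the 10 genes in the 40 libraries, on a log axis of its own for each gene. Circles are cows, triangles are bulls and bars are the median of 10 animals; the liver points of FOS, FOSB and NR4A1 lie below all points of fat and pituitary gland, and ATF3 in muscle runs from 31.3 to 2947 CPM.

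FOS and FOSB, which pair with JUN proteins to form AP-1, had the same order of tissues. FOS was 4.67 to 77.0 CPM in liver (median 15.8), 224.0 to 2053 CPM in fat (median 533.6), 37.9 to 986.8 CPM in muscle (median 254.6) and 249.5 to 699.6 CPM in pituitary gland (median 366.4). Every liver was below every fat and every pituitary sample, whereas the 3 other tissues overlapped. Its log2 fold change of liver to fat was −4.98 ± 0.57 (SE, n = 10 per tissue; adjusted p = 4.37e-10, edgeR), and none of the 3 comparisons among fat, muscle and pituitary gland passed (adjusted p 0.127 to 0.704, edgeR), although with library sizes alone FOS was lower in muscle than in fat and in pituitary gland (adjusted p = 0.0016 and 0.0184, edgeR). Fat to muscle also passed without the livers of bull 3 and cow 4 and the fat of bull 5 (1.12, adjusted p = 0.0451, edgeR). FOSB was lowest in liver, at 0.661 to 11.1 CPM (median 1.92), against medians of 173.7 CPM in fat, 28.8 CPM in muscle and 119.3 CPM in pituitary gland. FOSB was also lower in muscle than in fat (fat to muscle 2.35 ± 0.56 on the log2 scale, adjusted p = 0.000372, edgeR) and lower in muscle than in pituitary gland (−2.11 ± 0.55, adjusted p = 0.000884, edgeR).

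JUN and JUNB, the partners of the FOS proteins, were ordered differently from each other. JUN was highest in muscle, at 235.7 to 1233 CPM (median 608.3), followed by fat (median 405.9), pituitary gland (median 167.2) and liver (32.7 to 170.1 CPM, median 72.9). All liver samples lay below all muscle and all fat samples, and 5 of the 6 tissue differences had adjusted p-values from 1.55e-11 to 0.000881 (edgeR). The remaining one, fat to muscle, was small (−0.71 ± 0.29 on the log2 scale, adjusted p = 0.0306, edgeR). It did not pass with the animal as a block (adjusted p = 0.0509, edgeR) or without cow 4, bull 1, bull 2, bull 3 or bull 5 (adjusted p 0.0594 to 0.219). The call was also lost with filterByExpr (adjusted p = 0.097) and without the livers of bull 3 and cow 4 and the fat of bull 5 (adjusted p = 0.188), and its direction turned to 0.21 with library sizes alone. JUNB was instead lowest in muscle, at 33.4 to 88.2 CPM (median 55.0), and highest in fat, at 79.0 to 440.4 CPM (median 246.3). Liver and muscle, neighbours at the low end, did not differ in JUNB past the threshold (0.60 ± 0.27, adjusted p = 0.0529, edgeR), but they did with RLE factors (0.74, adjusted p = 0.0164), library sizes alone, filterByExpr, the likelihood ratio test or DESeq2 (adjusted p = 0.0116), and without cow 4, cow 5, bull 3 or the liver of bull 3 alone (0.68, adjusted p = 0.0288). Without the livers of bull 3 and cow 4 and the fat of bull 5 the difference was 0.91 (adjusted p = 0.00387), while with the animal as a block it did not pass. Liver and pituitary gland did not differ in it past the threshold (−0.34 ± 0.27, adjusted p = 0.272, edgeR), other than with library sizes alone (−1.19).

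ATF3, a stress-induced factor of the ATF/CREB family that can also pair with JUN proteins, stood out in muscle. Its level was 31.3 to 2947 CPM there (median 298.0), but 11.8 to 57.8 CPM in liver, 10.5 to 48.8 CPM in fat and 4.89 to 37.9 CPM in pituitary gland. The muscles of 3 cows (31.3, 46.4 and 49.5 CPM) fell within the range of the other tissues and the other 7 lay above it, so the groups overlapped. Muscle was nevertheless higher than pituitary gland by 5.75 ± 0.67 on the log2 scale (adjusted p = 5.95e-10, edgeR), and the log2 fold change to muscle was −5.002 ± 0.65 from liver (adjusted p = 7.68e-09) and −4.83 ± 0.64 from fat (adjusted p = 2.00e-08). Among liver, fat and pituitary gland no difference in ATF3 passed (adjusted p 0.146 to 0.811, edgeR).

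EGR1, a zinc finger factor that in the pituitary gland also acts on the gene of the luteinizing hormone beta subunit, was highest there. It was 277.4 to 1670 CPM in pituitary gland (median 717.9) and 5.74 to 124.3 CPM in liver (median 34.7), and these groups did not overlap. Fat (84.55 to 977.9 CPM, median 415.7) and pituitary gland did not differ past the threshold (−0.78 ± 0.61 on the log2 scale, adjusted p = 0.264, edgeR). In muscle its median was 68.6 CPM and its range 24.6 to 1611 CPM, with the highest value in bull 1 and the next at 286.5 CPM in cow 4. Muscle was lower than pituitary gland by this test (−1.68 ± 0.64, adjusted p = 0.0192, edgeR), but not without cow 3 (−1.36, adjusted p = 0.0717).

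NR4A1, an orphan nuclear receptor, was lowest in liver. It was 2.05 to 29.3 CPM in liver (median 2.94), 45.2 to 320.6 CPM in fat (median 120.9), 96.0 to 1289 CPM in muscle (median 247.1) and 140.9 to 985.7 CPM in pituitary gland (median 337.9). Every liver was below every sample of the 3 other tissues, with log2 fold changes of −4.15 ± 0.53 to fat, −5.29 ± 0.55 to muscle and −5.88 ± 0.58 to pituitary gland (adjusted p = 6.80e-09, 2.93e-11 and 3.94e-12, edgeR). Muscle and pituitary gland did not differ past the threshold (−0.60 ± 0.46, adjusted p = 0.261, edgeR), but they did without cow 5 (−1.15, adjusted p = 0.021) and with library sizes alone (−1.61). Fat was lower than muscle (−1.14 ± 0.47, adjusted p = 0.0335, edgeR), a call that was lost without cow 4, cow 5, bull 3 or bull 5 (adjusted p 0.0533 to 0.212), with filterByExpr (adjusted p = 0.0693), with library sizes alone (adjusted p = 0.624) and without the livers of bull 3 and cow 4 and the fat of bull 5 (adjusted p = 0.0755).

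MYC, which drives genes of growth and ribosome production, was low in pituitary gland in all 10 animals. It was 6.11 to 25.4 CPM there (median 8.79), below every fat sample (89.1 to 387.6 CPM, median 223.7) and every muscle sample (27.3 to 904.5 CPM, median 130.1). In liver it was 7.88 to 214.3 CPM (median 30.1). The difference of fat to pituitary gland was 4.39 ± 0.55 on the log2 scale (adjusted p = 3.91e-09, edgeR) and that of muscle to pituitary gland 4.29 ± 0.55 (adjusted p = 5.38e-09), while fat and muscle did not differ past the threshold (0.10 ± 0.48, adjusted p = 0.883, edgeR) other than with library sizes alone (1.10, adjusted p = 0.0338).

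DUSP1, the phosphatase that inactivates MAP kinases, shared the low level in pituitary gland. It was 73.8 to 190.4 CPM there (median 90.8), below every fat sample (300.2 to 843.5 CPM, median 471.2) and every muscle sample (344.4 to 1232 CPM, median 620.9). Liver, at 57.6 to 523.6 CPM (median 183.5), lay between and was higher than pituitary gland by 0.95 ± 0.30 on the log2 scale (adjusted p = 0.00584, edgeR). With library sizes alone this last difference was 0.12 and did not pass. IER2, an early response protein of the nucleus, was by contrast highest in fat, at 40.55 to 188.0 CPM (median 84.7), against 10.6 to 37.4 CPM in muscle, and these groups did not overlap. Its levels in liver (median 17.6 CPM) and muscle (median 17.8 CPM) did not differ past the threshold (0.08 ± 0.24 on the log2 scale, adjusted p = 0.812, edgeR).

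Counted over the 10 genes, 9 were lower in liver than in fat and 0 higher, where 64.3% of all 13148 genes were called, 35.4% lower in liver and 28.9% higher. In liver against muscle, where 62.1% of all genes were called, 8 were lower in liver (34.0%) and 0 higher (28.0%). In liver against pituitary gland, where 64.5% were called, 6 were lower (35.1%) and 2 higher (29.4%). Fat against muscle gave 3 higher in fat (32.8%) and 3 lower (26.8%), fat against pituitary gland 5 higher in fat (31.8%) and 1 lower (32.8%), and muscle against pituitary gland 4 higher in muscle (31.5%) and 4 lower (32.5%). In either direction 6, 6 and 8 of the 10 genes were called in the 3 comparisons without liver, beside 59.6%, 64.6% and 64.0% of all genes. With library sizes alone the median gene moved by up to 0.92 on the log2 scale and these splits moved with it: fat against muscle then gave 6 higher in fat and 1 lower, liver against pituitary gland 1 higher and 7 lower, liver against muscle 1 higher (JUNB) and 8 lower, and muscle against pituitary gland 4 higher and 6 lower. Without the livers of bull 3 and cow 4 and the fat of bull 5, liver against muscle gave 1 higher and 8 lower, fat against muscle 4 higher and 1 lower, and the other 4 comparisons gave the counts above. The ranges of 2 tissues were fully apart for 5 of the 10 genes in liver and fat (21.0% of all genes), 2 in liver and muscle (26.6%), 4 in liver and pituitary gland (33.2%), 1 in fat and muscle (15.8%), 2 in fat and pituitary gland (24.5%) and 2 in muscle and pituitary gland (30.8%).

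A wider list held 46 other immediate early and stress genes, of which 24 were lower in liver than in fat (35.4% of all genes) and 2 higher (28.9%), and 25 were lower in liver than in muscle (34.0%) and 9 higher (28.0%). The list's median log2 fold change was −0.74 in liver against fat (−0.15 over all genes) and −0.77 in liver against muscle (−0.15 over all genes). KLF4, a zinc finger factor, had one of the smallest adjusted p-values of the list in both (−5.47 ± 0.31, adjusted p = 2.18e-19 against fat, edgeR, and −4.26 ± 0.30 against muscle). Against pituitary gland 18 were higher in liver (29.4% of all genes) and 13 lower (35.1%). NR4A2, a relative of NR4A1, was far lower in liver than in pituitary gland (−6.31 ± 0.50, adjusted p = 5.72e-15, edgeR). Pituitary gland was lower than fat for 23 of the 46 genes (31.8% of all genes) and higher for 4 (32.8%), and lower than muscle for 23 (31.5%) and higher for 7 (32.5%). In either direction 26, 34, 31, 27, 27 and 30 of the 46 genes were called in the comparisons of liver with fat, liver with muscle, liver with pituitary gland, fat with muscle, fat with pituitary gland and muscle with pituitary gland, beside 64.3%, 62.1%, 64.5%, 59.6%, 64.6% and 64.0% of all genes.

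Among 12 upstream regulators, which include MAP kinases and the factors that bind the serum response and cAMP response elements, 10 were higher in muscle than in pituitary gland (31.5% of all genes) and 1 lower (32.5%), and 9 were higher in muscle than in fat (26.8%) and 1 lower (32.8%). The serum response factor SRF, which is also in the wider list, was highest in muscle, with log2 fold changes of −3.26 ± 0.22 in fat to muscle, −3.37 ± 0.22 in liver to muscle and 3.07 ± 0.22 in muscle to pituitary gland (adjusted p = 1.39e-16, 1.96e-17 and 3.49e-16, edgeR). Liver against fat gave 6 of the 12 regulators higher in liver (28.9% of all genes) and 1 (35.4%), MAPK3, lower (−2.77 ± 0.22, adjusted p = 9.16e-15, edgeR).

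Within 1 tissue the levels varied strongly between animals. The highest of 10 animals was more than 10 times the lowest for 6 genes in muscle, 5 in liver, 2 in fat and 0 in pituitary gland, and the median ratio was 19.7 in muscle, 11.7 in liver, 5.11 in fat and 3.73 in pituitary gland. To set this beside other genes, the SD of log2(CPM + 1) between animals of the same sex was ranked among all genes with a mean of 1 CPM or more in the tissue. The median SD of the 10 genes was 1.33 in muscle (0.466 over all genes), 1.03 in liver (0.437), 0.756 in fat (0.592) and 0.618 in pituitary gland (0.331). Their median percentile was 98.0 in muscle, 97.3 in liver, 91.9 in pituitary gland and 70.0 in fat. When 1 animal was left out it ran from 57.8 to 81.8 in fat, the highest being without bull 5. In muscle it then ran from 94.0 to 98.8, in liver from 95.5 to 97.9 and in pituitary gland from 89.3 to 93.7. This is a description with no test.

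ATF3 in muscle had the largest SD of the set (2.46). EGR1 (1.78), FOSB (1.69), FOS (1.68) and MYC (1.63) followed in muscle, at percentiles 99.5 to 99.7. In liver EGR1 (1.59), MYC (1.33) and FOS (1.29) varied most. IER2 stood at percentiles 56.9 to 65.9 in the 4 tissues, and the SD of JUNB in muscle (0.466) was that of the median gene. Fat was the tissue in which the set was closest to other genes, with JUN at percentile 33.2 and DUSP1 at 27.3.

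**Figure D2:**
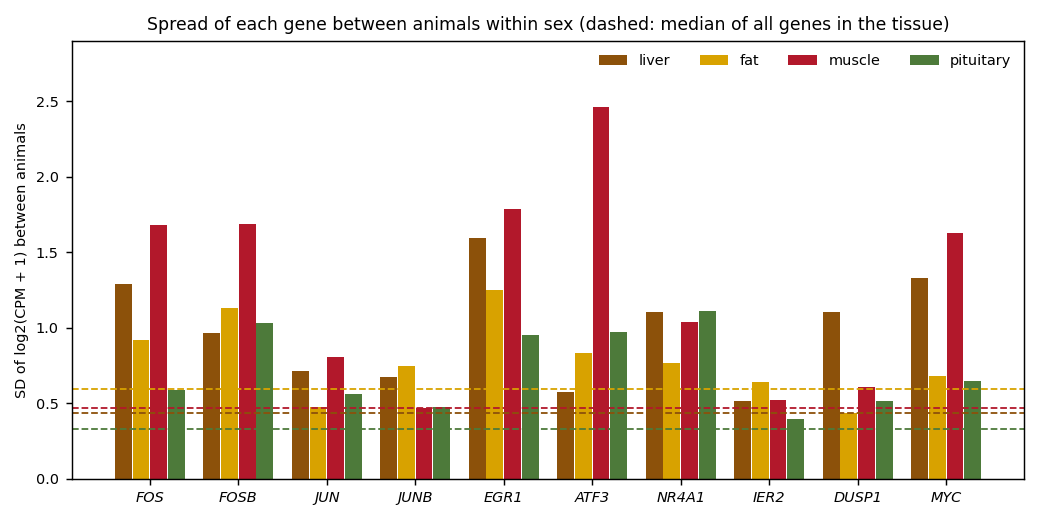
SD of log2(CPM + 1) between animals of the same sex for each gene and tissue, as bars from 0, with the median SD of all genes in the tissue as a dashed line of the same colour. The tallest bar is ATF3 in muscle (2.46), and the bars of JUN and DUSP1 in fat lie under the fat line (0.592).

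The variation was partly shared among the genes. In muscle and pituitary gland, animals that were high for 1 gene were mostly high for the others, and in fat and liver this was weaker. Relations were computed as Pearson's r of log2(CPM + 1) over the 10 animals for the 45 pairs of genes in each of 4 tissues, with permutation tests of 100000 resamples adjusted over the 180 relations. In muscle all 45 pairs had a positive r, the median r was 0.781, and 27 pairs passed. In pituitary gland all 45 were positive, with a median of 0.665, and 13 passed. In fat 44 were positive (median 0.422) and 6 passed, and in liver 36 were positive (median 0.414) and 10 passed. Over all pairs of genes with a mean of 5 CPM or more the median r was between 0.00065 and 0.018. That median does not show how many of all pairs were closely related in either direction. The share of all pairs that would pass was not computed, so the counts that passed stand without it. Centred on the mean of each sex, 29, 15, 7 and 14 pairs passed in muscle, pituitary gland, fat and liver. Without the liver of bull 3, 8 pairs passed in liver, and without the livers of bull 3 and cow 4 and the fat of bull 5, 5 passed in liver and 6 in fat. Of the 180 relations 56 passed in all, and this number was 28 without cow 1, without cow 2 or without cow 4 and 37 without cow 5.

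FOS and FOSB were the 1 pair that passed in all 4 tissues, with r of 0.9125 in muscle and 0.9003 in the pituitary gland, and of 0.874 and 0.846 in liver and fat. FOS with JUN and FOS with IER2 passed in liver, muscle and pituitary gland, FOSB with EGR1 in fat, muscle and pituitary gland, and JUN with EGR1 in liver, fat and pituitary gland. In muscle the closest pair was JUN and ATF3 (r = 0.962, permutation p = 3.0e-05, adjusted p = 0.0027; Spearman's rho = 0.988, permutation p = 3.0e-05), and r was 0.967 without the 2 animals farthest from the median of JUN. ATF3 with MYC was as close (r = 0.958, permutation p = 3.0e-05, adjusted p = 0.0027; rho = 0.915, permutation p = 0.00054; 0.933 without 2 animals). ATF3 passed with 8 of the 9 other genes in muscle, and FOS, FOSB, DUSP1 and MYC with 7 each. NR4A1 passed with none there, its lowest r being 0.157, with EGR1.

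In liver FOS was the gene with the most partners, 5 in all, and its relation with EGR1 was the closest (r = 0.884, permutation p = 0.00101, adjusted p = 0.0107; rho = 0.915, permutation p = 0.00055; 0.7945 without 2 animals). JUNB and ATF3 passed with no other gene in liver, and r between JUNB and NR4A1 was −0.363. In fat the closest pair was JUN and EGR1 (r = 0.933, permutation p = 0.00024, adjusted p = 0.0063; rho = 0.830, permutation p = 0.0046; 0.931 without 2 animals). In pituitary gland FOSB and JUN had 5 partners each, while MYC and NR4A1 had none and r between MYC and EGR1 was 0.046. Without the 2 farthest animals, the lowest r among the pairs that passed was 0.5996 in muscle, 0.595 in fat, 0.404 in liver and 0.231 in pituitary gland.

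The animals behind these relations differed between tissues. In muscle cows 1, 2 and 3 were below the tissue's median for all 10 genes, and cow 1 had the lowest value of 7 of them, while cow 4 and bull 1 were above it for all 10. Muscle FOS, for example, was 37.9, 67.3 and 42.8 CPM in cows 1 to 3, 666.6 and 861.0 CPM in cows 4 and 5, and 986.8, 229.1, 203.9, 364.7 and 280.0 CPM in bulls 1 to 5. Muscle NR4A1 of cow 3, at 246.9 CPM, was only just under the median of 247.1 CPM. In pituitary gland bull 5 was above the median for all 10 genes and had the highest value of 5, and cow 4 and bull 2 were above it for none. In liver bull 4 was above for all 10 and cow 2 had the highest value of 5 genes, whereas in fat bull 4 was above for all 10 and bull 3 for none. Among the 7 animals other than cows 1 to 3, chosen after their values were seen, the median r of the 45 muscle pairs was 0.626 and 43 were positive.

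**Figure D3:**
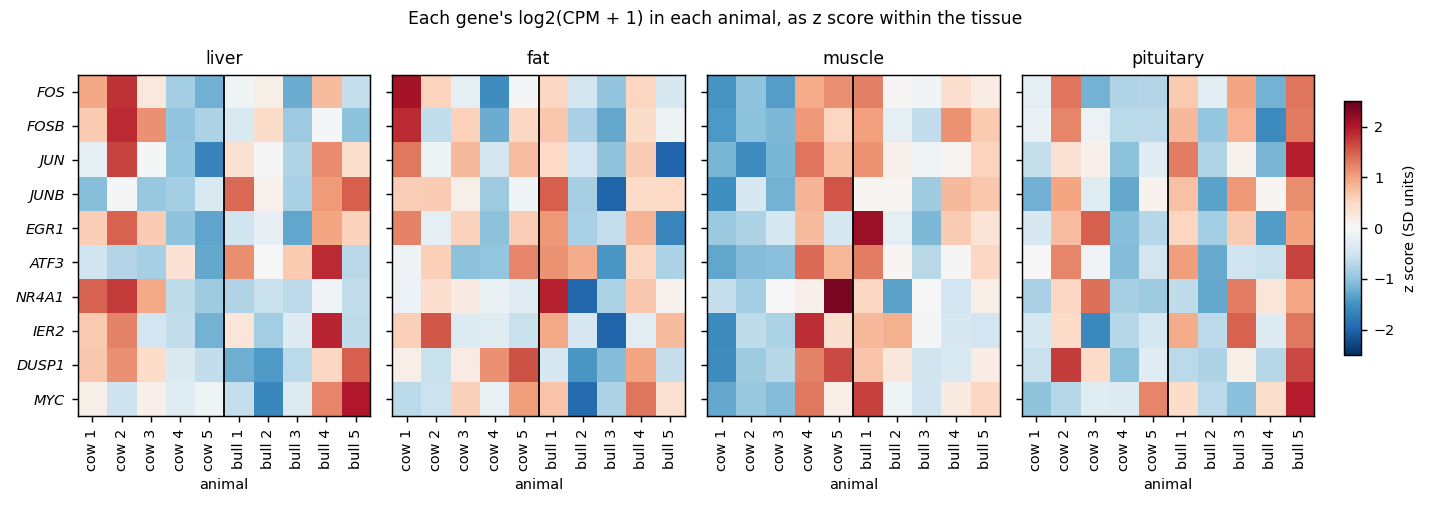
Each gene's log2(CPM + 1) as a z score over the 10 animals of a tissue, with genes as rows, animals as columns and a line between cows and bulls. Many columns are mostly of 1 colour, as for cows 1 and 2 in muscle (low for all 10 genes) and bull 5 in pituitary gland (high for all 10).

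Measures of the libraries moved with some of these columns. In muscle, 42.5% to 53.6% of reads fell outside genes in cows 1 to 3 and 36.4% to 45.1% in the other 7 animals, and the summed level of 6 leukocyte markers was 183.0 to 285.7 CPM against 43.9 to 152.2 CPM. The summed level of 4 endothelium markers overlapped (533.7 to 801.8 and 568.5 to 885.9 CPM). All 10 genes had a negative r with the share of reads outside genes in muscle (median −0.557) and with the leukocyte markers there (median −0.377), whereas 9 of 10 had a positive r with the leukocyte markers in liver (median 0.515) and in pituitary gland (median 0.420). These signs rested partly on 2 animals. Without 2 animals, r with reads outside genes in muscle ran from −0.482 (IER2) to 0.523 (EGR1). With the leukocyte markers it then ran from −0.638 (JUN) to 0.069 (NR4A1) in muscle. It ran from −0.306 (ATF3) to 0.818 (DUSP1) in liver and from −0.196 (NR4A1) to 0.453 (ATF3) in pituitary gland. In liver 9 of 10 had a positive r with the endothelium markers (median 0.582), as high as 0.842 for EGR1 (permutation p = 0.00384; rho = 0.806, permutation p = 0.00761; 0.854 without 2 animals). None of these 120 relations passed after adjustment (adjusted p = 0.199 for EGR1). Erythroid markers were at most 10.9 CPM in any library. Their part in the results was not tested.

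Between tissues no relation passed. For each gene r was computed between the levels of 2 tissues of the same 10 animals, 60 relations in all, and none passed after adjustment by permutation tests of either Pearson's r or Spearman's rho, nor when levels were centred on the mean of each sex. The median r over the 10 genes was 0.195 between liver and fat (0.132 over all genes with a mean of 5 CPM or more in both). There 9 of 10 were positive, beside 62.8% of all genes. The median was 0.233 between liver and pituitary gland (0.253), again with 9 of 10 positive (72.9% of all genes). It was 0.059 between fat and muscle (0.307), 0.027 between fat and pituitary gland (−0.021) and −0.059 between muscle and pituitary gland (0.303). Between liver and muscle it was −0.452 (0.1895 over all genes), and r was negative for 7 of the 10 genes, where 68.6% of all genes had a positive r. None of the 60 relations passed without the livers of bull 3 and cow 4 and the fat of bull 5, and the median was then −0.387 between liver and muscle and 0.261 between liver and fat.

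**Figure D4:**
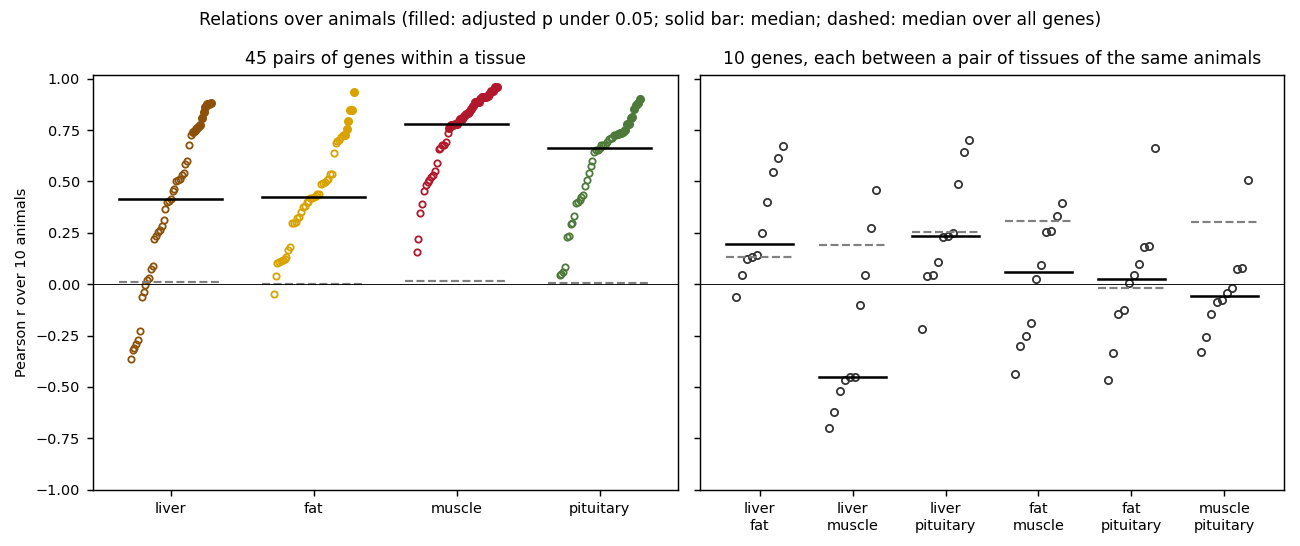
Pearson's r over 10 animals for the 45 pairs of genes within each tissue (left) and for each of the 10 genes between 2 tissues of the same animals (right). Filled points have an adjusted p under 0.05, solid bars are medians and dashed bars are medians over all genes; the muscle points on the left are all above 0 (median 0.781), and no point on the right is filled.

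The largest of these relations in size was that of DUSP1 between liver and pituitary gland (r = 0.702, permutation p = 0.0233, adjusted p = 0.516; rho = 0.564, permutation p = 0.0947; 0.533 without 2 animals). FOS had an r of 0.674 between liver and fat (permutation p = 0.0304, adjusted p = 0.516; rho = 0.758, permutation p = 0.0148; 0.688 without 2 animals) and of −0.620 between liver and muscle (permutation p = 0.0591, adjusted p = 0.516; rho = −0.527, permutation p = 0.124; −0.661 without 2 animals). FOSB between liver and muscle had an r of −0.699 (permutation p = 0.028, adjusted p = 0.516; rho = −0.612, permutation p = 0.0665; −0.527 without 2 animals). Cows 1 to 3, which were low in muscle, had FOSB levels of 4.28, 11.1 and 6.40 CPM in liver, the 3 highest of the 10 livers.

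The study set out to find genes that differ between cows and bulls, and for the 10 immediate early genes no difference passed. The models were M1, with sex alone in each tissue, and M2, with sex and tissue over 40 samples, both tested with edgeR's likelihood ratio test. Both were refitted here, and the numbers of genes called differ from those the paper reports. M1 called 0 of the 10 genes in every tissue, where it called 0.175% of all genes for liver, 0.114% for fat, 0.517% for muscle and 0.745% for pituitary gland, and M2 called 0 (1.69%). At an unadjusted p under 0.05 there were 4 genes for liver (7.45% of all genes), 0 for fat (6.88%), 1 each for muscle (1445 of 13148 genes) and pituitary gland (9.27%), and 1 for M2 (16.7%). The quasi-likelihood test and DESeq2 also called 0 in each. Of all 13148 genes the quasi-likelihood test called 1, 3, 7 and 12 for liver, fat, muscle and pituitary gland, and 77 for M2. DESeq2 called 20, 28, 89, 136 and 263 in the same order. The test of whether the difference of the sexes depends on the tissue called 0 (0.335%), with 2 at an unadjusted p under 0.05 (8.58% of all genes). In 1 set of data simulated from the muscle libraries, the M1 likelihood ratio test made more false calls than its threshold states. The quasi-likelihood test did not. M1 was not simulated for the other tissues or with a library left out. Calls of M1 that appear only when a sample is left out are given with both tests. With all libraries kept, cows and bulls separated in no tissue for any of the 10 genes. The share of all genes that separated was 1.65% for muscle, 1.34% for pituitary gland, 1.29% for fat and 0.548% for liver. Without the liver of bull 3, JUNB did separate in liver, at 82.0 CPM or more in the other bulls and at most 74.5 CPM in cows. The share of all genes was not computed without that library.

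Liver had the smallest p-values. JUNB was 39.4, 74.5, 42.1, 44.9 and 60.02 CPM in cows 1 to 5 and 183.2, 82.0, 46.2, 147.4 and 192.3 CPM in bulls 1 to 5. Bulls were higher apart from bull 3, the library without Y-linked reads, which lay among the cows. The log2 fold change of bulls to cows was 1.33 ± 0.36 (SE; adjusted p = 0.118, edgeR likelihood ratio test), and without that library it was 1.53 and passed (adjusted p = 0.00136), with 0.464% of all genes called. Without the liver of cow 4 as well it was 1.48 (adjusted p = 0.0064), with 1.17% of all genes called. By the quasi-likelihood test on the same samples JUNB did not pass (adjusted p = 0.0711 and 0.102). That test called few genes there at all (0.0837% and 0.145% of all genes). Over the alternatives its adjusted p ran from 0.00136 to 0.583.

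NR4A1 in liver went the other way, with 22.9, 29.3, 14.1, 2.81 and 2.05 CPM in cows 1 to 5 and 2.43, 3.04, 2.74, 5.23 and 2.83 CPM in bulls 1 to 5. Cows 1 to 3 were above every bull and cows 4 and 5 were among or below them. The same 3 livers had the highest summed endothelium markers (560.0, 589.7 and 694.1 CPM, against 278.3 to 468.5 CPM in the other livers), and r between NR4A1 and these markers was 0.802 over the 10 livers (permutation p = 0.00665; rho = 0.709, permutation p = 0.0275; 0.813 without 2 animals; adjusted p = 0.199). Their part in the difference was not tested. The log2 fold change was −2.06 ± 0.57 (adjusted p = 0.137, edgeR). It passed without cow 4 (−2.32, adjusted p = 0.0043, with 1.42% of all genes called), without cow 5 (−2.35, adjusted p = 0.00429, with 0.517% called) and without the livers of bull 3 and cow 4 (−2.29, adjusted p = 0.0163), and over all alternatives its adjusted p ran from 0.00429 to 0.601. By the quasi-likelihood test it passed in none of these subsets (adjusted p = 0.110, 0.220 and 0.159). That test called 5, 0 and 19 of all 13148 genes there, so the absence of a call says little about NR4A1. ATF3 in liver was 0.98 ± 0.35 higher in bulls (adjusted p = 0.315, edgeR). Among the alternatives tried it passed only without cow 4 (1.21, adjusted p = 0.0498, edgeR). By the quasi-likelihood test it did not pass there (adjusted p = 0.184, with 0.038% of all genes called).

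**Figure D5:**
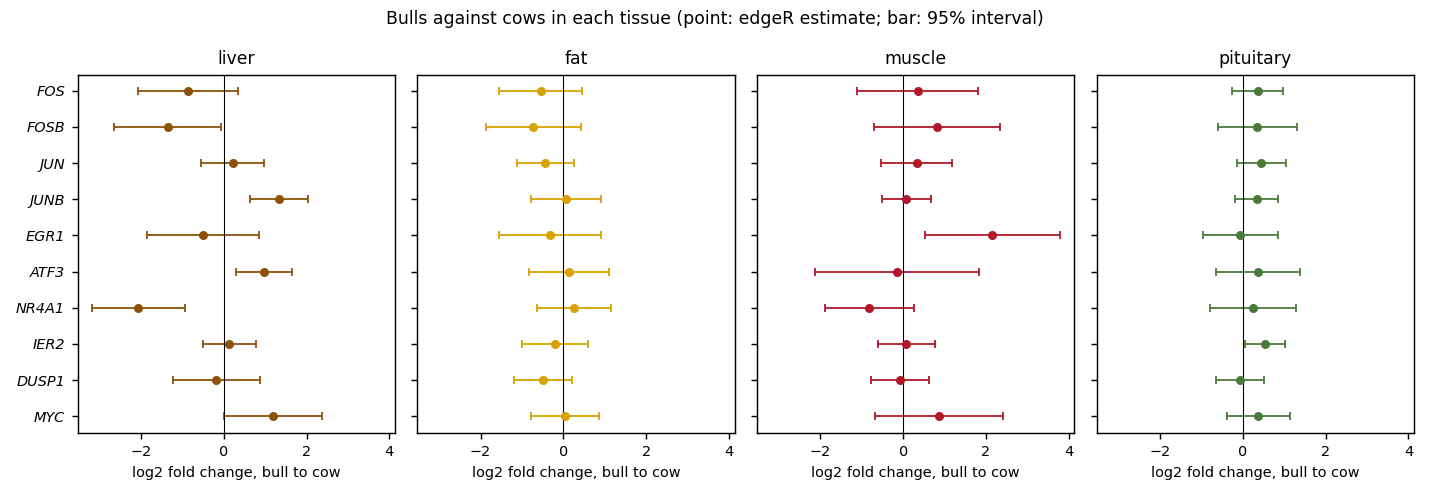
Log2 fold change of bulls to cows for each gene and tissue from M1, as points with 95% intervals, with a line at 0. The intervals of JUNB, ATF3, NR4A1 and FOSB in liver, EGR1 in muscle and IER2 in pituitary gland lie to 1 side of 0 before any adjustment for the number of genes.

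EGR1 in muscle was 32.0, 39.4, 59.4, 286.5 and 59.6 CPM in cows and 1611, 77.7, 24.6, 231.9 and 163.2 CPM in bulls, with a log2 fold change of 2.16 ± 0.83 (adjusted p = 0.278, edgeR), which was 0.40 without bull 1. Without cow 4, the high cow, EGR1 passed (3.15, adjusted p = 0.0127), as did MYC (2.25, adjusted p = 0.0312), where 4.21% of all genes were called. By the quasi-likelihood test on those samples neither passed (adjusted p = 0.0805 and 0.104), with 1.29% of all genes called. The interval of ATF3 in muscle ran from −2.12 to 1.82 on the log2 scale. In pituitary gland the interval of IER2 was 0.05 to 1.01 (0.53 ± 0.24, adjusted p = 0.464, edgeR), and in fat no interval excluded 0.

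Over the 4 tissues the difference with the smallest p was that of JUNB (0.44 ± 0.19, adjusted p = 0.220, edgeR), and the interaction with the smallest p was that of NR4A1 (adjusted p = 0.372, edgeR). When each animal was counted once, through its mean log2(CPM + 1) over 4 tissues, exact permutation tests (both sides) gave p from 0.198 to 0.818. Of the wider list 2 of 46 genes passed in M2, where 1.69% of all genes were called. In M1 of each tissue and in the interaction 0 of the 46 passed (0.114% to 0.745% and 0.335% of all genes). RGS2, a brake on G protein signalling, was higher in bulls in M2 (1.12 ± 0.30, adjusted p = 0.0305, edgeR). PLK2, a kinase of the polo family, was higher in cows (−0.50 ± 0.14, adjusted p = 0.040, edgeR). M2 counts the 4 tissues of an animal as separate samples. With the animal as a block neither gene passed (adjusted p = 0.322 and 0.377, limma), where 8 of 13148 genes were called. Neither passed by the quasi-likelihood test (adjusted p = 0.068 and 0.0734), where 77 of 13148 genes were called. RGS2 also did not pass without cow 1, cow 3, cow 5, bull 4 or bull 5 (adjusted p 0.0588 to 0.142) or without the livers of bull 3 and cow 4 and the fat of bull 5 (adjusted p = 0.0774), and PLK2 not without cow 1, cow 2, cow 3, bull 1, bull 2 or bull 3 (adjusted p of 0.054 or more).

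The genes most alike were sought by the r between their log2(CPM + 1) and the mean z score of the 10 genes over 40 samples, centred on the mean of their tissue and sex. Among 6853 genes with a mean of 5 CPM or more in every tissue, the 10 highest were ZFP36 (r = 0.859), PPP1R15A (0.843), KLF4 (0.833), CSRNP1 (0.793), SLC20A1 (0.768), CYR61 (0.757), TEX2 (0.737), DLGAP4 (0.729), JUND (0.715) and TIPARP (0.712). Of these, 6 belong to the wider list. Within muscle the first were NUP160 (r = 0.972), CSRNP1 (0.972), ABRA (0.970), PPP1R15A (0.966) and TIPARP (0.962), and within fat PPP1R15A (0.913), CP (0.877), METTL2B (0.866), HBEGF (0.859) and ZFP36 (0.835). In liver (SLC44A3, NUP210, ATP10D, VWF and TNK2, r 0.925 to 0.948) and pituitary gland (ANGPTL1, ZNF438, SLC29A3, RNASE4 and SPATA2, r 0.860 to 0.897) none of the first 5 belonged to the wider list. These values describe the ranking and carry no test.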

How the data were processed

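RNA of 40 samples had been sequenced as paired ends from poly-A libraries. The authors trimmed reads with Trimmomatic, aligned them to bosTau7 with TopHat2 and Bowtie2, and deposited raw read counts per gene from HTSeq. Strand and counting mode are not given in the sources used here, so reads of a gene and of an overlapping antisense gene cannot be told apart. A row without a gene name (0.114% to 2.69% of reads) and the totals of reads outside genes were left out. Groups came from the labels, and the 4 samples of an animal from its ear tag.

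Counts were scaled by TMM in edgeR 4.0.16 (R 4.3.3). Sex was tested by likelihood ratio tests (M1 by tissue, M2 with tissue, and their interaction), and tissues by quasi-likelihood tests with sex as a covariate. The threshold was an adjusted p of 0.05. Alternatives were the other edgeR test, RLE factors, library sizes alone, filterByExpr, DESeq2 1.42.0, other pseudocounts, the animal as a block, and leaving out each animal or the libraries in doubt. The quasi-likelihood tests of sex with a library left out were added after seeing the data. The samples of 1 animal are paired by the animal itself, and their correlation in limma 3.58.1 (voom) was 0.104. Relations used log2(CPM + 1) and permutation tests in numpy 2.4.6, with the ranks for Spearman's rho from scipy 1.17.1. Intervals are 95% intervals of the fit. Scripts were tested on simulated data.

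All 10 genes are named. Of the wider list (46 of 56 found) and the upstream regulators (12 of 13 found), counts are given and at most 6 genes with the smallest adjusted p in a comparison are named. The genes most alike are the 10 with the largest r over 40 samples and the 5 in each tissue. Members and lists were chosen with earlier results of these data known.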

Additional observations from a re-analysis of the deposited data

Results flagged for a closer look

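In groups of 5 animals of 1 sex and tissue, a sample was singled out where its gap to the nearest other animal took an unusually large part of the group's range of log2(CPM + 1). This was so in 3 of 80 groups, and chance alone gives about 1 in 20. FOSB in the pituitary gland of cow 2 was 306 CPM, against 84.3 to 120 CPM in the other cows. EGR1 in the muscle of cow 4 was 286 CPM, against 32.0 to 59.6 CPM in the other cows, and this is the animal without which EGR1 passed the likelihood ratio test of sex in muscle. NR4A1 in the liver of bull 4 was 5.23 CPM, against 2.43 to 3.04 CPM in the other bulls, from 67 reads in bull 4 and 17 to 30 in the others.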

How the results depend on the processing

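Leaving out 1 animal gave 0 to 2 of the 10 genes called between the sexes in liver and 0 to 2 in muscle. Without the liver of bull 3 the count in liver was 1. Without the livers of bull 3 and cow 4, an alternative chosen after seeing the data, it was 2. The quasi-likelihood test called 0 in each of these subsets and in muscle without cow 4 (0.0837%, 0.145% and 1.29% of all genes). The cause was not tested. Relations between 2 genes within a tissue that passed ranged from 28 to 53 when 1 animal was left out. JUN in fat against muscle reversed to 0.21 with library sizes alone. With the animal as a block, the pairing of tissues by animal, JUN in fat against muscle was −0.68 (adjusted p = 0.0509, edgeR), and no other call of the 10 genes changed. When 1 animal was left out, 4 to 6 genes were called in fat against muscle, 7 to 9 in muscle against pituitary gland and 8 to 9 in liver against muscle. Among the differences of single genes that passed under any setting, each counted once per setting, leaving out 1 animal left 549 on the same side of the threshold, moved 11 past it and took 10 below it. The other alternatives left 422 on the same side, moved 17 past it and took 7 below it. In liver, 5 to 109 reads of FOSB and 15 to 287 of NR4A1 were counted per library, which limits small differences at the low end.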
